A study of Gallus gallus with 6 samples.

Results

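The enzymes described here carry pyruvate into the tricarboxylic acid (TCA) cycle and run the cycle itself, with the cytosolic partners, malic enzymes and aminotransferases that exchange intermediates with it. They were taken by name from a fixed list of 32 gene symbols, of which 30 were among the 20943 genes of the deposited table. IDH3G and ME2 are not analysed here. A total of 28 had a mean of at least 1 FPKM (fragments counted per gene, divided by gene length and library size) over the 6 libraries and entered the test. GPT2, at a mean of 2.43 FPKM, lay nearest above this limit and OGDHL, at 0.163 FPKM, nearest below it. PCK1 was the other gene left out. The gene ontology terms in the deposited table name the mitochondrion for 26 of the 30, all but IDH1, ACO1, GOT1 and PCK1. The genes are scattered, with 27 of them on 16 named chromosomes and IDH3B, PC and PCK2 on sequence records with no chromosome name here.

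RNA came from the breast muscle (pectoralis major) of female broilers, meat-type chickens, aged 35 days. The 3 control libraries came from birds on the basal diet with 0 IU/kg of added vitamin E, and the 3 vitamin E libraries from birds on the same diet with 100 IU/kg, in the form of an ester, DL-α-tocopheryl acetate. The study asked how the vitamin relates to fat deposition within this muscle. No label says whether the samples of a group came from separate birds or pens, so a p-value here reflects only how these samples spread, which may be technical.

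Read totals recovered from the FPKM steps ran from 16239948 to 25477341 in controls and from 14161399 to 15288812 with vitamin E, so every vitamin E library was shallower than every control. The tested members rested on between 111 and 7147 reads per library, fewest for PCK2. On the first principal component of all tested genes (38.4% of the variance), controls 1, 2 and 3 scored -34.4, 5.87 and -14.2. The vitamin E libraries scored 16.5, 17.4 and 8.75, all above every control. Control replicate 1 lay furthest out. It was also the deepest library, with 25477341 reads against 17203041 in control replicate 2, the next deepest. Fast troponin genes were abundant, with TNNT3 between 12848 and 16284 FPKM and TNNC2 and TNNI2 at means of 5886 and 1105 FPKM. PVALB was under 1 FPKM. Of 9 slow-fibre markers in the table, MYH7, MYH7B, MYL2 and MYL3 averaged under 1 FPKM. TNNC1 and CASQ2 were abundant, at means of 9027 and 1645 FPKM, so TNNC1 lay above the fast TNNC2. The slow-fibre markers TNNI1, ATP2A2 and MYOZ2 were far lower, at means of 8.30, 9.38 and 21.2 FPKM. The fast ATP2A1 averaged 2345 FPKM. Taken singly, TNNC2 and CASQ2 were lower with vitamin E without overlap, at log2 differences of -0.19 and -0.23. The other tested fibre markers overlapped. Summed fibroblast markers (6 of 6 in the table) ran from 1499 to 1734 FPKM in controls and 2177 to 3041 with vitamin E. Summed adipocyte markers (6 of 6) ran from 142 to 226 and 242 to 375 FPKM, and red cell markers (3 of 7) from 34.4 to 72.2 and 75.6 to 97.2 FPKM. These 3 sums did not overlap between the groups. Taken singly, 4 of 6 fibroblast and 2 of 2 tested red cell markers did not overlap, but all 5 tested adipocyte markers did. Over all 11320 tested genes 14.6% did not overlap, 8.86% on the higher side and 5.72% on the lower. FABP4, the highest adipocyte marker, measured 166, 102 and 73.9 FPKM in controls and 165, 165 and 311 FPKM with vitamin E. Endothelial (6 of 6, 128 to 179 and 149 to 203 FPKM) and leukocyte markers (5 of 6, 465 to 873 and 719 to 892 FPKM) did overlap. CD74, at a mean of 601 FPKM, made up most of the leukocyte sum. Of the leukocyte markers only LY86 did not overlap, at 131, 54.0 and 48.3 FPKM in controls and 164, 152 and 157 FPKM with vitamin E. No fibroblast, adipocyte, endothelial or leukocyte marker was at 0 in any library, and HBG2 was at 0 in vitamin E replicate 3. The part of depth and of these cell types in the results below was not tested, and in bulk tissue fewer cells of a type and less RNA per cell cannot be told apart.

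Pyruvate made by glycolysis crosses the inner mitochondrial membrane through the MPC1 and MPC2 carrier and is turned into acetyl-CoA by the pyruvate dehydrogenase complex, or into oxaloacetate by pyruvate carboxylase. Citrate synthase joins acetyl-CoA to oxaloacetate, and the cycle oxidises the product back to oxaloacetate, passing electrons to the respiratory chain. Chicken breast muscle is made almost wholly of fast glycolytic fibres, which depend on glycolysis for bursts of work and hold few mitochondria.

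No transcript of these enzymes differed between the diets beyond the threshold, and most differences were small. With limma 0 of the 28 tested members passed at an adjusted p of 0.05, as did 0 of all 11320 tested genes (0.0%), and voom, run on the recovered reads, called 0 members and 2 of all genes. The lowest adjusted p of a member was 0.409. Only 2 members had an unadjusted p under 0.05 with limma, PDHX on the lower side and PCK2 on the higher, 7.14% of the members against 9.11% of all tested genes. With voom PDHX and GPT2 were under that p and PCK2 was not. The median log2 difference of the members was 0.064, with 18 above 0 and 10 below, beside 0.019 for all tested genes, and with library quality weights the members' median was the lower, 0.0235 against 0.0311. Without control replicate 1 the members' median was also the lower, -0.0016 against 0.0361. Of the 28 differences 23 were smaller than 0.25 in size on the log2(FPKM + 1) scale, and 27 of the 95% intervals excluded a 2-fold change on that scale in either direction. GPT2, the member with the lowest level, was the exception.

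**Figure D1:**
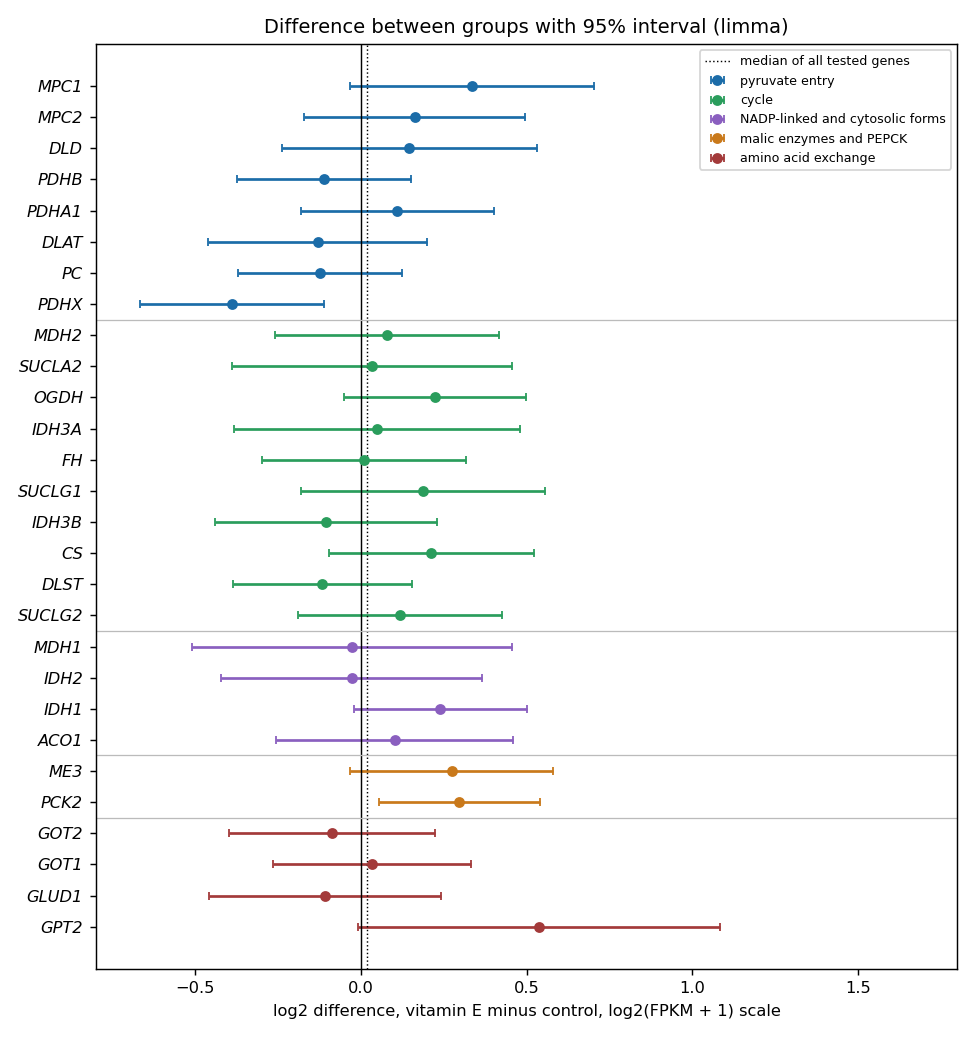
Log2 difference (vitamin E minus control, log2(FPKM + 1) scale) of the 28 tested genes, as points with the 95% interval from limma, coloured by role and ordered by mean level within it. The dotted line is the median of all tested genes, 0.019. The intervals of PDHX and PCK2 do not reach 0, and that of GPT2 is the widest.

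In 6 members (21.4%, against 14.6% of all tested genes) the 3 vitamin E libraries and the 3 controls did not overlap. CS, OGDH, IDH1 and PCK2 lay higher with vitamin E, where 8.86% of all tested genes did so. PDHX and PC lay lower, where 5.72% of all tested genes did so. These genes act at separate points: the entry of acetyl-CoA (CS), an oxidative step of the cycle (OGDH), cytosolic NADPH supply (IDH1), the exit of carbon from oxaloacetate (PCK2), the core of pyruvate dehydrogenase (PDHX) and the refilling of oxaloacetate (PC).

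**Figure D2:**
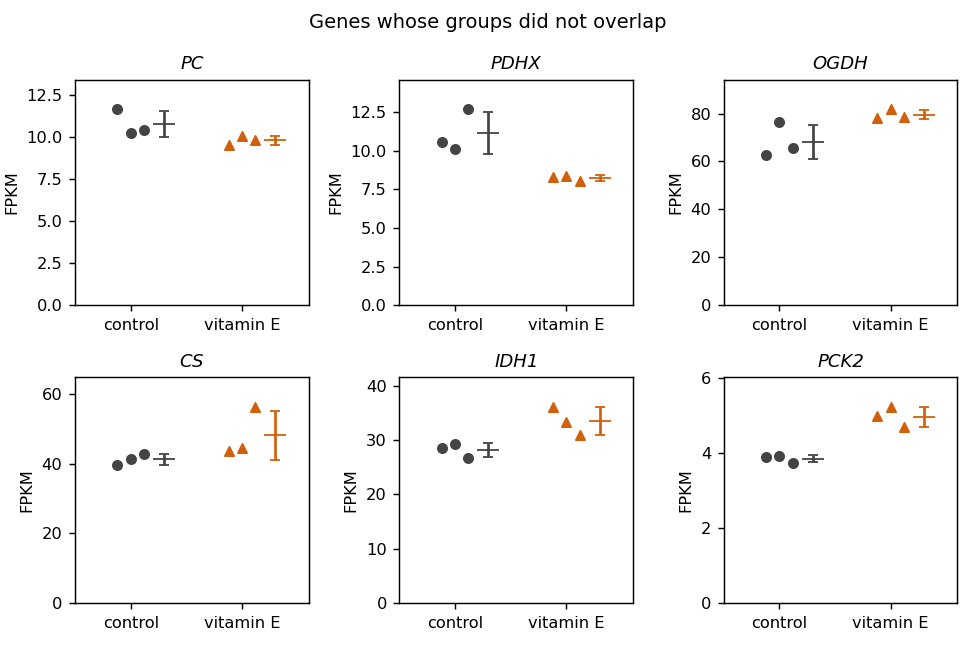
FPKM (linear axis from 0) of the 6 genes whose groups did not overlap, with circles for the 3 control and triangles for the 3 vitamin E libraries, and the mean with its SD to the right of each. PDHX with vitamin E spans 8.02 to 8.39 FPKM, under the lowest control at 10.1 FPKM.

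Of the 8 genes of pyruvate entry, 4 lay higher and 4 lower. PDHX (chromosome 5, 18864357 to 18901604, forward strand) encodes the subunit that anchors the dihydrolipoamide dehydrogenase component to the core of the pyruvate dehydrogenase complex. It measured 10.6, 10.1 and 12.7 FPKM in controls 1, 2 and 3 and 8.29, 8.39 and 8.02 FPKM in vitamin E libraries 1, 2 and 3. The vitamin E libraries were close together and all below the controls, of which the third was the highest. The log2 difference was -0.39 ± 0.12 (SE; 95% interval -0.67 to -0.11; limma, unadjusted p = 0.0129, adjusted p = 0.409). Its unadjusted p stayed under 0.05 in all 19 alternatives run, with log2 differences between -0.447 and -0.297, while the adjusted p ran from 0.241 to 0.803. The alternatives refit the same libraries, in which PDHX had the lowest p of the members, so they are not independent support.

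The other subunits of the complex lay closer to their control level. DLAT, the acetyltransferase of the core to which PDHX binds, averaged 23.2 ± 1.75 and 21.2 ± 3.22 FPKM (mean ± SD of the 3 controls, then of the 3 vitamin E libraries). PDHA1 and PDHB, which form the decarboxylating component, averaged 33.1 ± 2.83 and 35.8 ± 3.26 FPKM and 42.5 ± 2.21 and 39.3 ± 2.96 FPKM. DLD, the dehydrogenase shared with the 2-oxoglutarate dehydrogenase complex, averaged 71.1 ± 12.2 and 78.4 ± 9.82 FPKM. Their log2 differences were -0.13, 0.11, -0.11 and 0.15, with intervals that all held 0 (adjusted p between 0.798 and 0.824, limma), and the differences from PDHX were not tested. PDHX made up 33.3%, 29.4% and 34.4% of the summed FPKM of PDHX and DLAT in the controls and 25.4%, 28.0% and 31.0% with vitamin E, a ratio chosen after the values were seen. The third vitamin E library lay within the range of the controls, so this share overlapped between the groups.

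MPC1 (chromosome 3, 42972093 to 42982172, forward strand), a subunit of the mitochondrial pyruvate carrier, had the highest level of the entry genes. It measured 70.0, 96.8 and 88.2 FPKM in controls and 119.5, 105 and 95.9 FPKM with vitamin E. The groups overlapped only in that the third vitamin E library lay just under the second control, and the first control was far below the rest. The log2 difference was 0.34 ± 0.16 (SE; 95% interval -0.034 to 0.70; adjusted p = 0.574, limma), and 0.203 without control replicate 1. Its partner MPC2 averaged 71.8 ± 10.3 and 80.1 ± 6.95 FPKM, with a log2 difference of 0.16. PC, pyruvate carboxylase, measured 11.7, 10.2 and 10.5 FPKM in controls and 9.55, 10.1 and 9.82 FPKM with vitamin E. The vitamin E values were all lower, but only slightly, and the log2 difference was -0.12 ± 0.10 (SE; adjusted p = 0.763, limma).

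**Figure D3:**
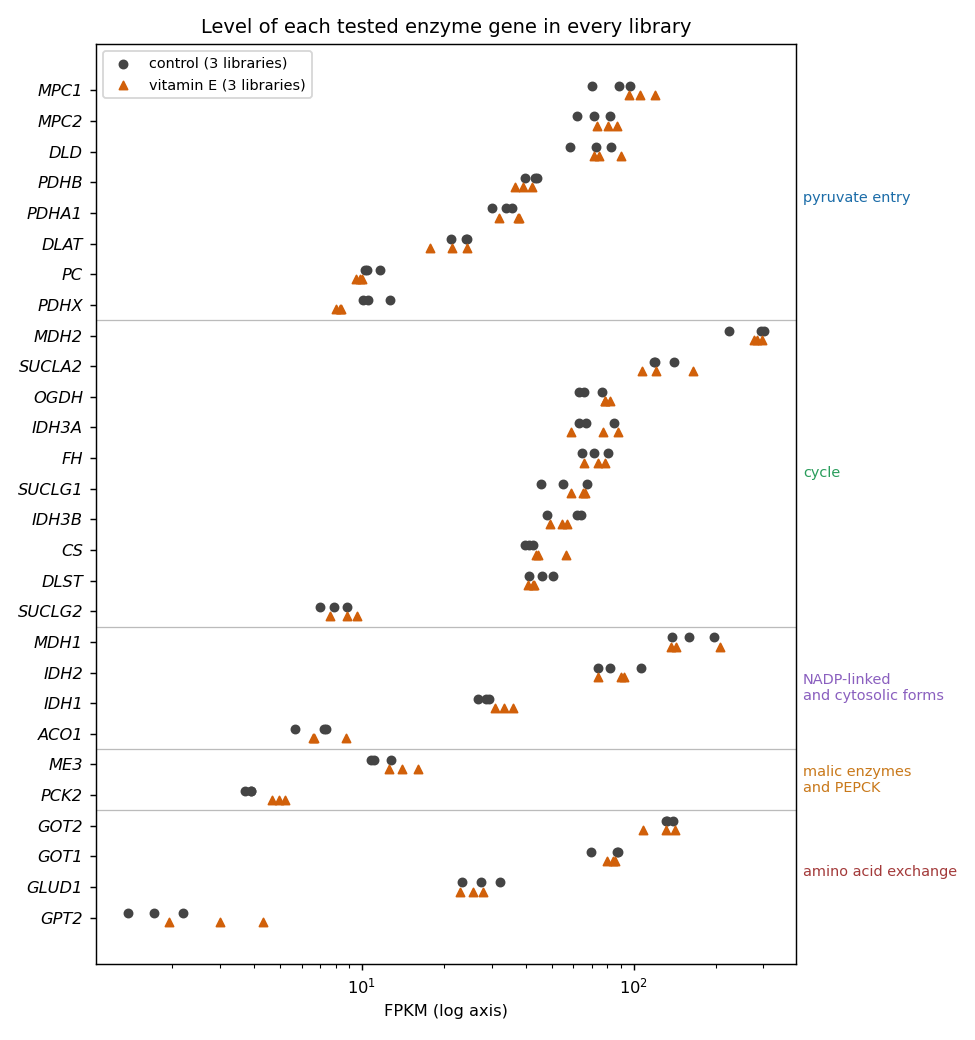
FPKM (log axis) of the 28 tested genes in each of the 3 control (circles) and 3 vitamin E (triangles) libraries, grouped by role and ordered by mean level within it. MDH2 is the highest at a mean of 279.7 FPKM and GPT2 the lowest at 2.43 FPKM. The groups overlap in 22 of the 28 genes. OGDHL and PCK1 are not drawn.

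Among the 10 tested enzymes of the cycle proper, 8 lay higher and 2 lower, where 6134 of all 11320 tested genes lay higher. Of the 10, 0 had an unadjusted p under 0.05 (limma). The split leaned on a single library. Without control replicate 1, FH, IDH3A, MDH2 and SUCLA2 lay lower too, at -0.0642, -0.0358, -0.0565 and -0.00849. CS, citrate synthase, measured 39.7, 41.3 and 42.7 FPKM in controls and 43.8, 44.5 and 56.4 FPKM with vitamin E. The third vitamin E library was well above the others, and the other 2 were barely over the highest control. The log2 difference was 0.21 ± 0.13 (SE; 95% interval -0.10 to 0.52; adjusted p = 0.673, limma), and 0.0975 without vitamin E replicate 3. OGDH (chromosome 22, 4622977 to 4643738, forward strand), which decarboxylates 2-oxoglutarate, measured 62.8, 76.3 and 65.5 FPKM in controls and 78.2, 81.8 and 78.5 FPKM with vitamin E. Its vitamin E values were close together, with the second control just below them, and the log2 difference was 0.22 ± 0.12 (SE; 95% interval -0.052 to 0.50; adjusted p = 0.61, limma). DLST, the succinyltransferase of the same complex, averaged 45.9 ± 4.51 and 42.2 ± 1.04 FPKM, and its log2 difference, -0.12, was on the other side of 0. The related gene OGDHL was listed between 0.0667 and 0.378 FPKM and was not tested.

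The catalytic subunit of NAD-dependent isocitrate dehydrogenase, IDH3A, averaged 71.4 ± 11.4 and 74.3 ± 14.5 FPKM, and its partner IDH3B 57.9 ± 8.50 and 53.4 ± 3.93 FPKM, controls first (SD, n = 3). Their log2 differences were 0.049 and -0.11. For succinyl-CoA synthetase, the shared alpha subunit SUCLG1 averaged 56.0 ± 10.7 and 63.3 ± 3.88 FPKM, with a log2 difference of 0.19. The ATP-forming beta subunit SUCLA2 averaged 126 ± 12.3 and 131 ± 30.7 FPKM, and the GTP-forming beta subunit SUCLG2 7.91 ± 0.875 and 8.68 ± 1.00 FPKM. SUCLA2 exceeded SUCLG2 in every library and made up 94.1% ± 0.802 in controls and 93.7% ± 0.719 with vitamin E of their summed FPKM (SD, n = 3). SUCLG2 was the lowest tested gene of the cycle, at 7.03, 8.78 and 7.93 FPKM in controls and 9.62, 8.79 and 7.62 FPKM with vitamin E, with overlapping groups.

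Fumarase (FH) had the smallest difference of all members, 0.011 (95% interval -0.30 to 0.32), at 72.2 ± 7.87 and 72.7 ± 6.62 FPKM, and the sign turned under TMM-type and median-of-ratios scaling. MDH2, the mitochondrial malate dehydrogenase that closes the cycle, was the highest member and stood above 98.3% of tested genes. It measured 225, 294 and 301 FPKM in controls and 277, 284 and 297 FPKM with vitamin E. The first control was low and the other 5 libraries lay close together, with a log2 difference of 0.078.

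Of the NADP-linked and cytosolic enzymes, IDH1 alone had groups that did not overlap. IDH1 (chromosome 7, 13851494 to 13864149, reverse strand), the NADP-dependent isocitrate dehydrogenase of cytosol and peroxisomes, measured 28.5, 29.3 and 26.7 FPKM in controls and 36.1, 33.3 and 31.0 FPKM with vitamin E. Every vitamin E value was higher, the third by the least. The log2 difference was 0.24 ± 0.11 (SE; 95% interval -0.022 to 0.50; adjusted p = 0.571, limma). Its mitochondrial counterpart IDH2 was the more abundant, at 87.3 ± 16.7 and 85.0 ± 9.83 FPKM, with a log2 difference of -0.028. Cytosolic malate dehydrogenase MDH1 measured 138, 159.6 and 197 FPKM in controls and 208, 137 and 143 FPKM with vitamin E, highest in control 3 and vitamin E 1, so that the spread within groups exceeded the difference between them. ACO1, the cytosolic aconitase that also acts as an iron-regulatory protein, was the lowest of these, at 7.37, 7.29 and 5.66 FPKM in controls and 6.64, 8.77 and 6.65 FPKM with vitamin E, the groups overlapping and the log2 difference being 0.10.

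PCK2, the mitochondrial phosphoenolpyruvate carboxykinase, turns oxaloacetate into phosphoenolpyruvate. It measured 3.90, 3.90 and 3.73 FPKM in controls and 4.97, 5.22 and 4.67 FPKM with vitamin E. The controls were nearly equal and all vitamin E values were above them. The log2 difference was 0.30 ± 0.10 (SE; 95% interval 0.055 to 0.54; limma, unadjusted p = 0.0228, adjusted p = 0.466). The cytosolic form PCK1 was listed at 0 in all 3 controls and in vitamin E replicate 3, and at 0.179 and 0.0488 FPKM in vitamin E replicates 1 and 2. ME3, a mitochondrial NADP-dependent malic enzyme that makes pyruvate from malate, measured 11.1, 10.8 and 12.8 FPKM in controls and 16.1, 14.0 and 12.5 FPKM with vitamin E. The groups overlapped through the third library of each, and the log2 difference was 0.27 ± 0.13 (SE; 95% interval -0.032 to 0.58; adjusted p = 0.58, limma).

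The genes that exchange carbon with amino acids ranged widely in level. GOT2, the mitochondrial aspartate aminotransferase, measured 139, 131 and 133 FPKM in controls and 108, 132 and 141 FPKM with vitamin E, and the first vitamin E library was the lowest. Its cytosolic partner GOT1 averaged 81.3 ± 9.90 and 82.8 ± 2.78 FPKM. GLUD1, glutamate dehydrogenase, averaged 27.7 ± 4.46 and 25.5 ± 2.52 FPKM. Their log2 differences were -0.087, 0.034 and -0.11, with intervals that all held 0. GPT2, the mitochondrial alanine aminotransferase, measured 1.37, 2.21 and 1.72 FPKM in controls and 3.02, 4.34 and 1.95 FPKM with vitamin E. The third vitamin E library lay among the controls and the other 2 above them. The log2 difference was 0.54 ± 0.23 (SE; 95% interval -0.0081 to 1.08; adjusted p = 0.555, limma), the largest of the members. Without vitamin E replicate 2 it was 0.327, smaller in size than those of MPC1 (0.343) and PDHX (-0.399).

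Summed over the 30 genes, the level was 1536 to 1829 FPKM in controls and 1725 to 1871 FPKM with vitamin E, or 0.317 to 0.371% and 0.336 to 0.375% of the FPKM of all genes. The 17 genes of glycolysis and glycogen breakdown in the table held 12.7 to 16.4% and 14.9 to 16.7%. MDH1, MDH2, GOT1 and GOT2, which carry reducing equivalents from cytosol to mitochondria in the malate-aspartate shuttle, made up between 35.9% and 39.3% of the summed members in the 6 libraries. The cycle's enzymes were unequal: CS and DLST averaged 44.7 and 44.0 FPKM over the 6 libraries, against 279.7 for MDH2 and 8.30 for SUCLG2.

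Shares within pairs of related genes do not depend on how libraries are scaled, and 7 were compared. IDH1 made up 24.7% ± 2.63 in controls and 28.4% ± 3.98 with vitamin E of IDH1 and IDH2. For MDH1 of both malate dehydrogenases the share was 37.6% ± 2.22 in controls and 36.0% ± 5.98 with vitamin E, and for GOT1 of both aspartate aminotransferases 37.6% ± 3.65 in controls and 39.6% ± 3.49 with vitamin E. MPC1 made up 54.2% ± 1.02 in controls and 57.1% ± 4.06 with vitamin E of the carrier's subunits (SD, n = 3). All 7 shares overlapped between the groups, with exact two-sided permutation p-values between 0.3 and 0.8 and an adjusted p of 0.8 for each. The smallest p that 3 against 3 libraries allow is 0.1. Single libraries moved these differences: without 1 library that of IDH1 ran from 1.52 to 5.35 percentage points and that of MPC1 from 1.59 to 5.29. That of MDH1 ran from -5.04 to 0.166 points, above 0 without vitamin E replicate 2 or 3, and that of GOT1 from -0.116 to 3.19, below 0 without control replicate 1 or vitamin E replicate 1.

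Much of the variation ran between single libraries. The median SD within groups was 0.158 on the log2 scale for the members and 0.188 for all tested genes, and it ran from 0.051 for PCK2 to 0.34 for GPT2. Control replicate 1 had the lowest value of the 6 libraries in 13 of the 28 members and vitamin E replicate 1 the highest in 9. The same counts were not made over all tested genes. Averaged over the members, the deviation from each gene's own mean was -0.138 in control replicate 1 and 0.085 in vitamin E replicate 1. It was between -0.047 and 0.065 in the other 4 libraries. Averaged over all tested genes, it was 0.0302 in control replicate 1 and 0.0202 in vitamin E replicate 1. MPC1, SUCLG1, DLD and MDH2 were furthest below their means in control replicate 1, after GPT2. PC, GLUD1, PDHX, GOT2, DLST and ACO1 were above their means there, so the shift was not shared by every member. Without control replicate 1, 2 members had an unadjusted p under 0.05 (8.06% of all genes tested). Without control replicate 2 there were 5 (13.8% of all), PDHX, PCK2, OGDH, MPC1 and GPT2, and without control replicate 3 there was 1 (7.55%). Without vitamin E replicate 1 or 2 there was 1 (6.83% and 6.12%), and without replicate 3 there were 4 (8.67%), PDHX, PCK2, ME3 and GPT2. PDHX was among them in each case.

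**Figure D4:**
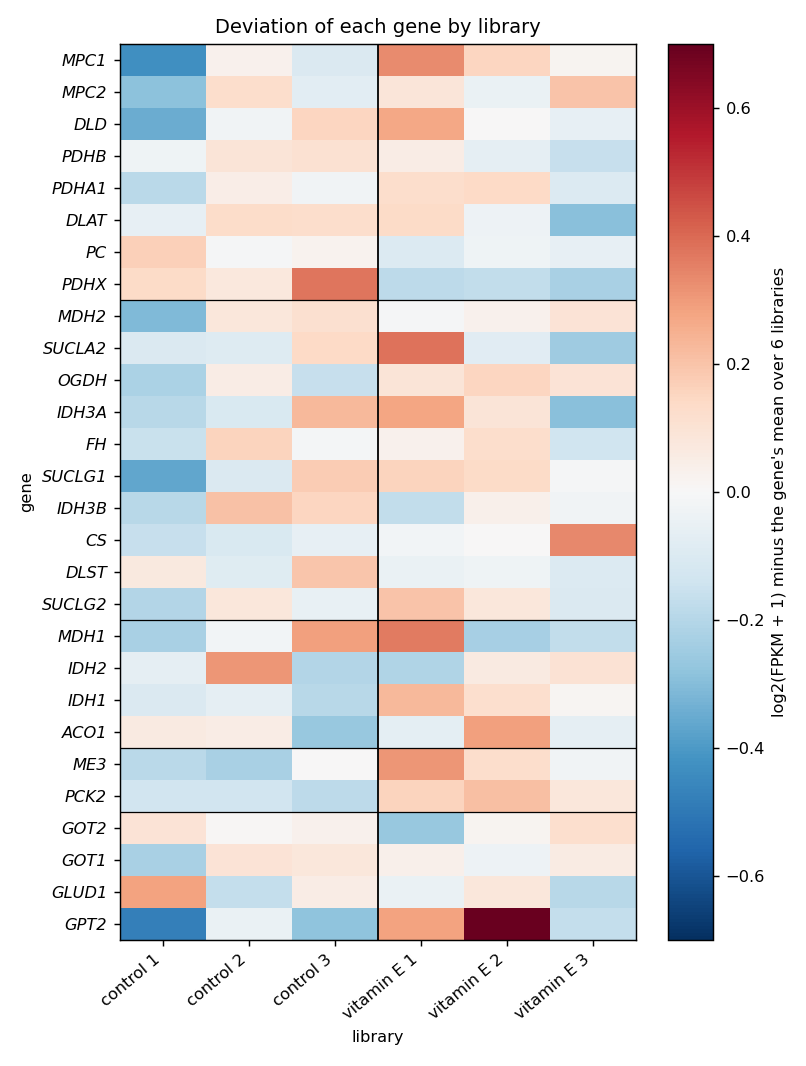
Deviation of each of the 28 tested genes (rows, ordered as by role and level) from its own mean over the 6 libraries (columns), in log2(FPKM + 1), red for above and blue for below. Control replicate 1 is blue in most rows, with the lowest value in 13 of 28 genes. PDHX, PCK2 and IDH1 are split by sign between the groups.

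In the rest of the pathway, a list of 46 further genes, 38 of the 39 in the table were tested and 0 passed over all genes (limma). At an unadjusted p under 0.05 there were 4, all higher with vitamin E, where 5.97% of all tested genes were higher and 3.14% lower at that level, and the median log2 difference was 0.135. PDK4, a kinase that inactivates pyruvate dehydrogenase by phosphorylating PDHA1, measured 91.3, 117 and 55.3 FPKM in controls and 234, 364 and 531 FPKM with vitamin E, a log2 difference of 2.07 ± 0.36 (SE; adjusted p = 0.249, limma). Its groups were far apart. Those of PDHA1 overlapped, but transcript levels do not measure the phosphorylation of the PDHA1 protein. LIPT1, which transfers lipoic acid onto the acyltransferase cores of the dehydrogenase complexes, measured 4.27, 4.41 and 4.12 FPKM in controls and 6.09, 6.24 and 5.13 FPKM with vitamin E, a log2 difference of 0.37 without overlap. The others were PPARD, a nuclear receptor of oxidative metabolism, and the coactivator gene PPARGC1B, with differences of 0.39 and 0.38. PPARGC1B lay close to the limit of 1 FPKM for testing. Its control mean of 0.963 FPKM was under that limit, while the vitamin E mean was 1.54 FPKM and the mean of all libraries 1.25 FPKM. In this list the groups did not overlap in 7 tested genes on the higher side, where 8.86% of all tested genes did so. On the lower side there were 2, GCSH and BDH1, with differences of -0.26 and -0.24, where 5.72% of all tested genes did so. SDHA, SDHB and SDHC, subunits of succinate dehydrogenase and no members, had differences of 0.039, 0.016 and 0.30, with overlapping groups.

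Neighbouring pathways are given beside all 11320 tested genes, of which 6134 had a difference above 0 and 5.97% were higher at an unadjusted p under 0.05. Of 60 tested nuclear genes of respiratory chain subunits, 50 had a difference above 0, with a median of 0.133, and 5 were higher at that p, with 0 lower. These were led by ATP5E, NDUFA1 and COX7A2, subunits of ATP synthase, complex I and cytochrome c oxidase, with log2 differences of 0.53, 0.44 and 0.43. Of 16 tested genes of fatty acid oxidation 13 lay above 0, with a median of 0.164, and 3 were higher at that p: DECR1, ETFB and ACSL1, with differences of 0.68, 0.57 and 0.50. Glycolysis had 10 of 15 above 0, a median of 0.103 and 0 genes under that p. No gene of these lists passed over all genes. The TCA members had the lowest median of these lists, and the differences between lists were not tested. Respiratory chain genes deviated in the same libraries as the members, by -0.176 on average in control replicate 1 and 0.184 in vitamin E replicate 1. SDHA, SDHB and SDHC stand in both that list and the rest of the pathway.

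**Figure D5:**
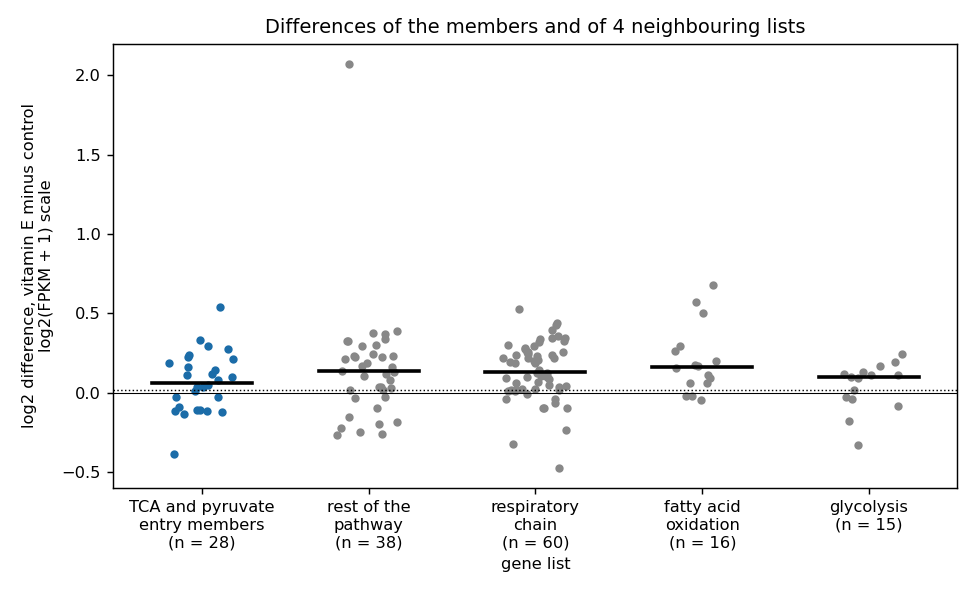
Log2 difference (vitamin E minus control, log2(FPKM + 1) scale) of each tested gene in the TCA and pyruvate entry list and in 4 neighbouring lists, with bars at the medians and a dotted line at the median of all tested genes. The members lie between -0.388 and 0.538, with a median of 0.064, and PDK4 is the point at 2.07.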

How the data were processed

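Pectoral muscle RNA of 3 control and 3 vitamin E libraries was enriched for poly(A) RNA and sequenced on an Illumina instrument, per the labels' protocols. Gene values were deposited by the authors as FPKM in 1 table, with TopHat2 2.0.12 named in the submitters' processing notes. No counter, annotation, genome build or use of strand is stated in the sources used here, and antisense reads cannot be told apart. No table held other columns of sample values. A total of 22 names turned into dates match no list.

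Genes were matched by name. Chromosome names come from the chromosome on which the GRCg7b gene table of RefSeq lists most symbols of each sequence record, while starts and ends are those of the deposited table.

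The comparison was fitted in limma (3.58.1, under R 4.3.3) to log2(FPKM + 1), letting the variance follow intensity, over the 11320 genes averaging 1 FPKM or more. Tests were two-sided and Benjamini-Hochberg adjustment ran over all tested genes, with a threshold of 0.05. Differences on this scale understate the change of low genes. Whole reads within 0.02 were recovered from the FPKM steps for 100% of tested genes, and 1 FPKM of a 1 kb gene stood for between 14.2 and 25.5 reads. No libraries of a group agreed within sampling noise. Shares were compared with exact permutation tests (scipy 1.17.1). Members with an unadjusted p under 0.05 or with groups that do not overlap, and the highest and lowest of each role, were given in full. The members and lists were chosen with earlier results of these data known. 1 gene counted in a neighbouring list is not reported here by name. Alternatives were other pseudocounts, filters, scalings, variance models, voom, blocks and leaving out each library.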

Additional observations from a re-analysis of the deposited data

How the results depend on the processing

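With limma 0 members passed over all genes under any of the 13 other settings or without any of the 6 libraries. Over all genes 2 passed with a minimum of 5 FPKM and 2 with voom on the recovered reads. Members at an unadjusted p under 0.05 numbered 1 with a minimum of 5 FPKM, because PCK2 is then not tested, 3 with no filter (IDH1, PCK2 and PDHX), and between 1 and 5 without single libraries. There were 5 without control replicate 2, 4 without vitamin E replicate 3, and 1, PDHX, without control replicate 3 or vitamin E replicate 1 or 2, and the cause was not tested. PCK2 was under that p in 13 of 19 alternatives, of which that with a minimum of 5 FPKM did not test it. With voom GPT2 was under that p in its place, at a log2 difference of 0.788. The median of the members ran from -0.00158 (without control replicate 1) to 0.128 without single libraries, from 0.0637. Without control replicate 1 the median of all genes was 0.0361. It was 0.0342 with TMM-type and 0.0334 with median-of-ratios scaling, 0.0415 with a minimum of 5 FPKM, and 0.0235 with library quality weights, where the median of all genes, 0.0311, was above it.

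FH turned to -0.0186 with TMM-type and -0.0195 with median-of-ratios scaling, and IDH2 to 0.00317 and SUCLA2 to -0.0161 with library quality weights. Without single libraries 10 members turned, and the cause was not tested. Their ranges were -0.016 to 0.161 for ACO1, -0.0642 to 0.0902 for FH, -0.22 to 0.00532 for GLUD1, -0.0703 to 0.0896 for GOT1, -0.168 to 0.0245 for GOT2, -0.136 to 0.12 for IDH2, -0.0756 to 0.207 for IDH3A, -0.215 to 0.11 for MDH1, -0.0565 to 0.155 for MDH2 and -0.147 to 0.167 for SUCLA2.

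Same-numbered libraries deviated from their group means with correlations of -0.129, 0.149 and 0.0122. Only those numbered 2 matched each other best, while controls 1 and 3 best matched vitamin E replicates 3 and 1. With 3 libraries per group these correlations cannot decide whether the replicate numbers pair the libraries. With the replicate block 0 members passed and 2 had an unadjusted p under 0.05, PDHX and GPT2. In this balanced design a block cannot move the differences, so the median in the paired fit is 0.0637 by construction. A block for a digit in the sample descriptions, whose meaning the labels do not give, gave 0 members passing and 3 at that p (GPT2, PCK2 and PDHX).

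The fewest reads of a tested member in any library were 111 for PCK2 and 133 for GPT2, and the part of depth was not tested.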

Other observations

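LDHA, the muscle form of lactate dehydrogenase, which competes with the mitochondrial carrier for pyruvate, measured 13779.7, 15336 and 17849.9 FPKM in controls and 23688, 16416 and 15653 FPKM with vitamin E. It was highest in vitamin E replicate 1 and, among controls, in replicate 3. Of the 28 tested members only MDH1, SUCLA2, DLD, IDH3A and SUCLG1 had their 2 highest values in the same 2 libraries. SLC25A12, the aspartate-glutamate carrier of the malate-aspartate shuttle, also did, at 49.7 FPKM in control replicate 3 and 66.9 FPKM in vitamin E replicate 1. These genes were set side by side after their values were seen, and no relation between them was tested. How many of all tested genes had their 2 highest values in these libraries was not counted.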
